A study of Mus musculus with 6 samples.

Results

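The genes described here encode 10 subunits of the BAF chromatin remodelling complex, taken from the table of gene counts by symbol: *Smarca4*, *Smarca2*, *Arid1a*, *Arid1b*, *Smarcc1*, *Smarcc2*, *Smarcd1*, *Smarcd3*, *Actl6a* and *Dpf2*. They are 10 of the 35565 genes listed, and all 10 had enough counts to be tested. Bulk RNA-Seq had been performed on mouse gastruloids, which are aggregates of embryonic stem cells (ESCs) that elongate in culture and form derivatives of the germ layers. The 6 libraries were collected at day 5, with 3 from Control (NT) cells, which carry a non-targeting construct and are labelled WT, and 3 from *T-UCstem1* KD-1 cells, in which the ultraconserved long non-coding RNA *T-UCstem1* is knocked down. Both groups derive from the mESC line TBV2 129/SvP, and both received the GSK3 inhibitor CHIR99021 during gastruloid formation. Each group is a single cell line and KD-1 is a single clone, so that a difference between clones and an effect of the knockdown cannot be told apart. The level of *T-UCstem1* was not analysed here.

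BAF, also called SWI/SNF, uses ATP to slide or eject nucleosomes and so opens enhancers and promoters to transcription factors. Each complex holds 1 ATPase, SMARCA4 (BRG1) or SMARCA2 (BRM), and a core of SMARCC and SMARCD subunits. Most forms also hold an ARID subunit, which helps to define the form, and accessory subunits such as ACTL6A or, in some forms, DPF2. Most positions can be filled by either member of a paralog pair. In ESCs the complex is known for its use of SMARCA4, SMARCC1 and SMARCD1, whereas SMARCA2, SMARCC2 and SMARCD3 are known for their use in differentiated cells, SMARCD3 (BAF60C) above all in heart and mesoderm.

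Since the members are paralogs, the sequences that could confound their counts were compared first. The aligned bases of the coding sequences were 76.0% identical for *Smarca4* and *Smarca2*, 72.3% for *Arid1a* and *Arid1b*, 73.1% for *Smarcc1* and *Smarcc2*, and 73.2% for *Smarcd1* and *Smarcd3*. The longest identical run within these coding sequences was 20, 26, 26 and 21 bases, respectively. Over all annotated transcripts, 0 stretches of 31 bases were shared within any of these 4 pairs, where 31 bases is the default word length by which Salmon matches reads. The run in each of the 3 pairs with the most uneven change is shown in capitals, with 20 bases on either side, 5′ to 3′ on the coding strand of the Gencode vM39 transcript (GRCm39). The capitals mark the longest exact match of the coding sequences, which need not be their most similar region.
*Smarca4*, coding bases 545 to 604: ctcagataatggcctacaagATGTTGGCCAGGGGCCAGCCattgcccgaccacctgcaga
*Smarca2*, coding bases 551 to 610: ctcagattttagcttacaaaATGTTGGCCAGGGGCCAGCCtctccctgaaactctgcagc
*Smarcc1*, coding bases 2684 to 2749: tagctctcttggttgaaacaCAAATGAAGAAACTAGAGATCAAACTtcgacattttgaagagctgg
*Smarcc2*, coding bases 2780 to 2845: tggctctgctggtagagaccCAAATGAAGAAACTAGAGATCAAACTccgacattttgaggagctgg
*Smarcd1*, coding bases 358 to 418: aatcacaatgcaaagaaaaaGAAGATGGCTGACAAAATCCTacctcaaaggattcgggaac
*Smarcd3*, coding bases 283 to 343: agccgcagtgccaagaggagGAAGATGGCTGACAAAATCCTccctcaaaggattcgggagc

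The libraries held 20982249 to 56674906 counts in Control and 41180012 to 85561026 in KD-1, and are named below by their depth within the group, in the order lowest, middle and highest. Levels are TMM-normalized CPM, that is, counts scaled to a common library size with a correction for composition. The middle Control library stood apart from the other Control libraries. Its counts differed from theirs by a chi-square of 36.3 and 36.5 per degree of freedom, against 15.3 between the other Control libraries and 4.85 to 11.1 among the KD-1 libraries. Calls rest on edgeR's quasi-likelihood test, adjusted over all 15110 genes tested, and require both an adjusted p under 0.05 and a difference of more than 1.5-fold. By this rule 37.7% of all genes tested were called, 18.1% lower and 19.7% higher in KD-1. No label ties the libraries of a group to separate cultures, so p-values measure the spread between these libraries, which may be technical.

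Of the 10 members, 4 fell in KD-1 gastruloids, namely *Smarca4*, *Smarca2*, *Smarcc2* and *Smarcd3*, and 0 rose. The 40.0% called is close to the 37.7% over all genes, and the members' median log2 fold change was -0.41 beside -0.01 over all genes tested. By adjusted p alone, without the fold threshold, 6 members were lower and 0 higher, where 63.5% of all genes passed in either direction and 32.6% were lower. The levels of the groups did not overlap for 7 of the 10 members, as for 70.6% of all genes tested. The members' counts per library ran from 150 to 33012. As these are bulk samples, fewer cells of a type and less RNA per cell cannot be told apart in any of these levels.

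**Figure D1:**
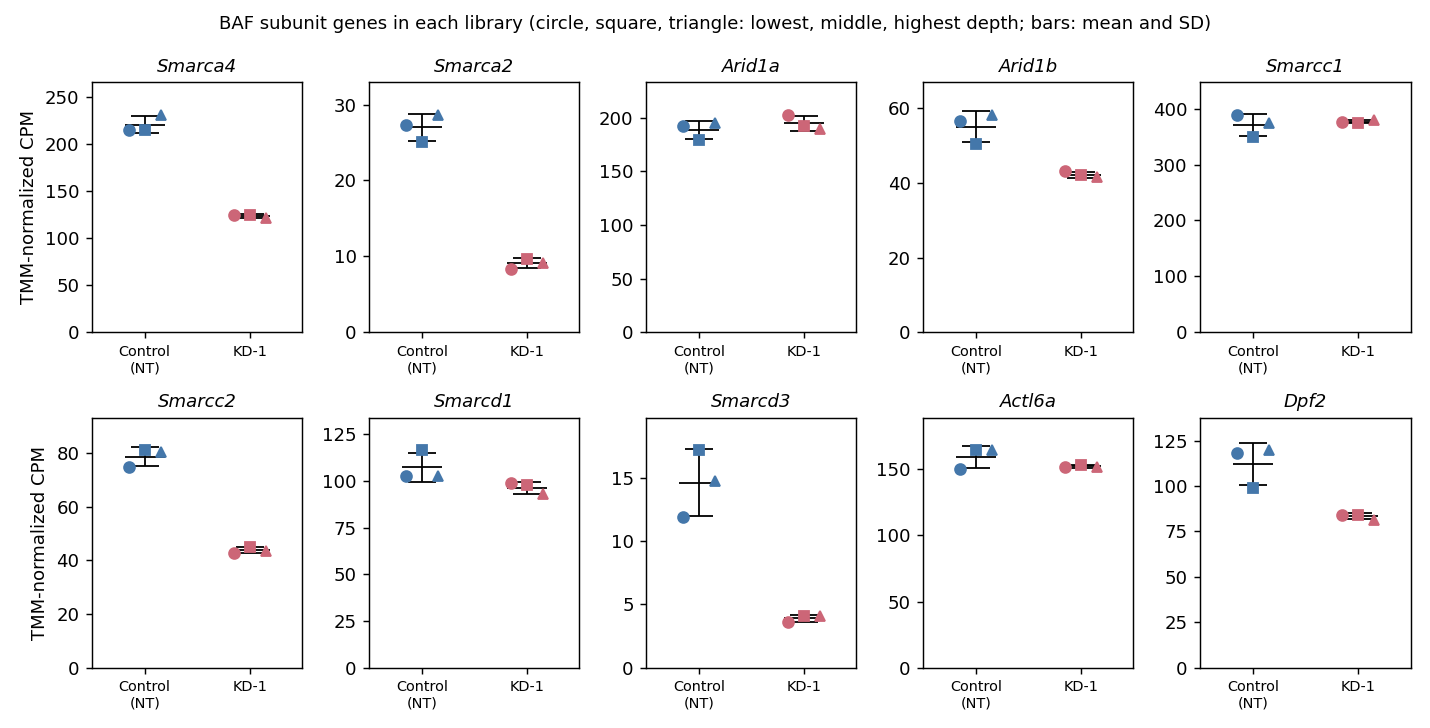
TMM-normalized CPM of the 10 members in each library (y axis from 0, a separate scale for each gene), with circles, squares and triangles for the libraries of lowest, middle and highest depth and bars for the mean and SD of 3 libraries. The points of *Smarca4*, *Smarca2*, *Smarcc2* and *Smarcd3* lie well below Control in KD-1, whereas those of *Arid1a*, *Smarcc1* and *Actl6a* overlap.

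Both ATPase genes fell. *Smarca4*, which encodes the main ATPase of BAF in ESCs (ENSMUSG00000032187; GRCm39 chr9:21527398-21615526), was at 214.8, 215.0 and 230.7 CPM in the Control libraries and at 124.3, 124.5 and 121.1 in the KD-1 libraries. Every KD-1 library thus lay far below every Control library, and the KD-1 libraries differed little among themselves. The mean went from 220.2 ± 9.08 to 123 ± 1.89 CPM (SD, n = 3), a log2 fold change of -0.84 with an SE of 0.05, or 1.79-fold lower (adjusted p = 3.4e-06, edgeR). *Smarca2*, the alternative ATPase (ENSMUSG00000024921; GRCm39 chr19:26582450-26755722), was at 27.2, 25.1 and 28.6 CPM in Control and at 8.40, 9.70 and 9.19 in KD-1. Its groups were again separate, and it fell by 1.57 on the log2 scale with an SE of 0.09, or 2.97-fold (adjusted p = 1.6e-06, edgeR). Of all genes tested, 70.7% had a smaller absolute log2 fold change than *Smarca4* and 87.9% a smaller one than *Smarca2*.

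As the ATPase genes moved together, the stretches upstream of their start sites are shown, taken from the RefSeq promoter table (GRCm38.p6) and placed on GRCm39 by exact match. Each ends where the first annotated exon begins, and GC boxes, the letters GGGCGG or their reverse complement CCGCCC, which bind SP-family factors, are in capitals.
*Smarca4*, GRCm39 chr9:21527224-21527397, plus strand: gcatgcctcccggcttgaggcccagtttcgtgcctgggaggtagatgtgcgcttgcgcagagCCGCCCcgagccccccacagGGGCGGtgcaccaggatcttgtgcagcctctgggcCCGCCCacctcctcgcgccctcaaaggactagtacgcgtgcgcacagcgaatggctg
*Smarca2*, GRCm39 chr19:26582310-26582449, plus strand: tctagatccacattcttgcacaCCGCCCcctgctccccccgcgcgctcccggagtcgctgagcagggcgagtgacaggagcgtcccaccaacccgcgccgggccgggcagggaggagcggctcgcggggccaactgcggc
The printed stretch held 3 GC boxes for *Smarca4* and 1 for *Smarca2*. In the 250 bases upstream of each RefSeq start, read on both strands, 9 of the 11 start sites of the 10 members held a GC box, whereas 10727 of all 32536 promoters did. A TATAAA was found in 0 of the 11 and in 12.3% of all promoters, a CCAAT in 1 and in 33.8%, a CCGGAA, the core of ETS sites, in 4 and in 12.1%, and a CACGTG in 0 and in 6.04%. The members' promoters were 57.2% to 81.6% G and C. These matches describe the letters only and were present in members that fell and in members that did not.

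Of the SMARCC scaffold genes, whose products hold the core together and shield the other subunits from degradation, only *Smarcc2* was called. *Smarcc1*, the scaffold typical of ESCs (chr9), was at 389, 349 and 374 CPM in Control and at 376, 374 and 380.1 in KD-1. These values overlapped, with a log2 fold change of 0.02 (95% interval -0.11 to 0.15, adjusted p = 0.74, edgeR) that turned to -0.02 without the middle Control library. *Smarcc2* (ENSMUSG00000025369; GRCm39 chr10:128294424-128326456) was at 74.9, 81.1 and 80.3 CPM in Control and at 43.0, 45.0 and 43.7 in KD-1. The groups were separate, and *Smarcc2* fell by 0.84 on the log2 scale with an SE of 0.06, or 1.80-fold (adjusted p = 5.5e-06, edgeR).

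Of the SMARCD genes, whose products link the complex to transcription factors, *Smarcd3* had the largest change among the 10 members. *Smarcd3* (ENSMUSG00000028949; GRCm39 chr5:24795816-24829409, minus strand) was at 11.9, 17.2 and 14.8 CPM in Control and at 3.58, 4.09 and 4.05 in KD-1. The Control libraries were spread more widely than for the other members that fell, yet all lay far above KD-1, and the level fell by 1.91 on the log2 scale with an SE of 0.15, or 3.75-fold (adjusted p = 9.4e-06, edgeR). *Chpf2*, a gene on the opposite strand that encodes a chondroitin sulfate enzyme, shares 2466 exonic bases with *Smarcd3*, 43.4% of the exonic bases of the latter. Its mean went from 10.4 to 6.99 CPM (log2 fold change -0.58, adjusted p = 0.001, edgeR), and since the use of strand in the counting is not stated, reads from the shared bases cannot be told apart. *Smarcd1*, the paralog typical of ESCs (chr15), was at 103, 116 and 102 CPM in Control and at 98.7, 97.7 and 92.7 in KD-1. Its groups did not overlap but lay close together, with a log2 fold change of -0.15 (95% interval -0.31 to -0.00, adjusted p = 0.074, edgeR).

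The ARID subunits bind DNA and mark the canonical form of the complex. *Arid1a* (chr4) was at 192, 179 and 195 CPM in Control and at 203, 193 and 190 in KD-1, which overlapped, with a log2 fold change of 0.05 (95% interval -0.09 to 0.18, adjusted p = 0.51, edgeR). *Arid1b* (chr17) was at 56.4, 50.4 and 58.1 CPM in Control and at 43.0, 41.9 and 41.4 in KD-1. The groups were separate, and *Arid1b* was lower by less than 1.5-fold, with a log2 fold change of -0.38 and an SE of 0.07 (adjusted p = 0.0014, edgeR).

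Of the accessory subunits, *Actl6a* (BAF53A, chr3), the actin-related protein of dividing and stem cells, was at 149.9, 164 and 164 CPM in Control and at 151, 153 and 152 in KD-1. The KD-1 values lay within the range of Control, and the log2 fold change was -0.07 (95% interval -0.20 to 0.06, adjusted p = 0.31, edgeR). *Dpf2* (BAF45D, chr19), a PHD finger subunit that reads histone modifications, was at 118, 98.7 and 119.6 CPM in Control and at 84.1, 84.3 and 81.5 in KD-1. The middle Control library was nearest to KD-1, although above it. *Dpf2* was lower by less than 1.5-fold, with a log2 fold change of -0.43 and an SE of 0.08 (adjusted p = 0.0014, edgeR), which was -0.52 without that library.

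**Figure D2:**
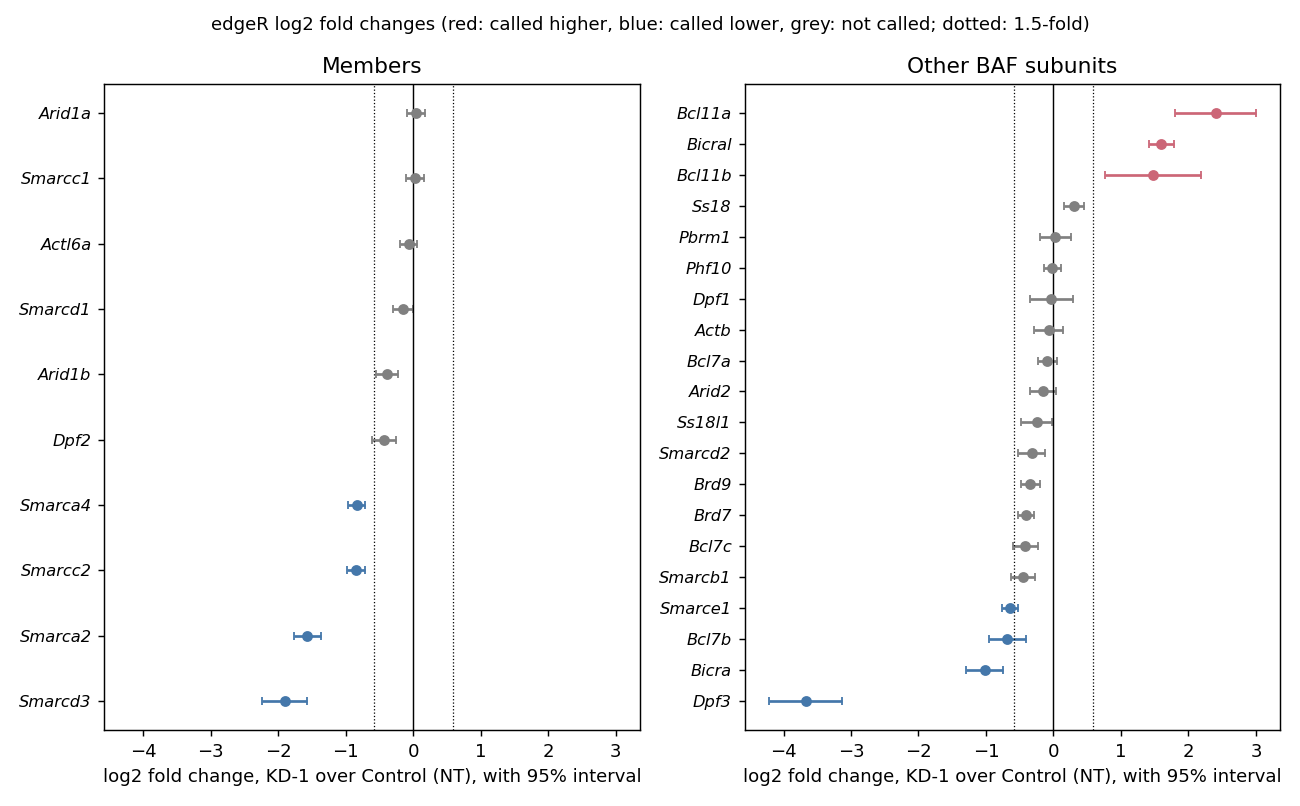
Log2 fold changes of KD-1 over Control (x axis) with 95% intervals from edgeR for the 10 members (left) and for 20 other BAF subunits (right), in blue where called lower, in red where called higher and in grey where not called, with dotted lines at 1.5-fold. The 4 called members are all lower, whereas the other subunits lie on both sides, from -3.67 for *Dpf3* to 2.40 for *Bcl11a*.

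To compare the paralogs within a library, where scaling and depth cancel, the log2 ratio of their counts was taken. In all 4 pairs of members the ratio of the first to the second was higher in every KD-1 library than in any Control library. How often the ratios of other gene pairs separate in this way was not computed, and 70.6% of single genes tested did so. The shifts follow from the fold changes of the genes given above and are not separate evidence. The counts of *Smarcd1* were 8.61, 6.77 and 6.94 times those of *Smarcd3* in Control and 27.6, 23.9 and 22.9 times in KD-1. The log2 ratio was 2.89 ± 0.19 in Control and 4.63 ± 0.14 in KD-1 (SD, n = 3), and the shift of 1.74 was far above either spread. For *Smarca4* to *Smarca2*, the ratio was 7.88, 8.58 and 8.06 in Control and 14.8, 12.8 and 13.2 in KD-1, a shift of 0.73 on the log2 scale between genes that both fell. For *Smarcc1* to *Smarcc2*, the ratio was 5.19, 4.31 and 4.66 in Control and 8.75, 8.31 and 8.70 in KD-1, a shift of 0.87. For *Arid1a* to *Arid1b*, it was 3.40, 3.56 and 3.36 in Control and 4.71, 4.59 and 4.58 in KD-1, the smallest shift of these pairs at 0.43.

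In an exact two-sided permutation test over libraries, each of these 4 pairs gave p = 0.1, which is the smallest that 3 against 3 libraries allow, or 0.114 adjusted over the 8 pairs computed. With 3 libraries per group, this test cannot reach 0.05 for a single ratio. With any single library left out, the shift stayed between 1.66 and 1.85 for *Smarcd1* to *Smarcd3*, 0.67 and 0.77 for *Smarca4* to *Smarca2*, 0.80 and 0.94 for *Smarcc1* to *Smarcc2*, and 0.41 and 0.45 for *Arid1a* to *Arid1b*.

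The other 4 pairs set a member or another BAF subunit beside a further paralog. *Dpf3* (BAF45C), a subunit known from heart and skeletal muscle, was at 6.17, 4.80 and 7.83 CPM in Control and at 0.429, 0.483 and 0.541 in KD-1. The log2 ratio of *Dpf2* to *Dpf3* accordingly went from 4.18 to 7.43, a shift of 3.25 and the largest of the 8. *Smarcd1* to *Smarcd2* shifted by 0.16 and *Ss18* to *Ss18l1* by 0.56, with no overlap between groups in either. The counts of *Smarcd2* may include reads from a gene that shares 28.5% of its exonic bases. *Dpf2* to *Dpf1* was the exception, as its log2 ratio was 4.44 in Control and 4.03 in KD-1 and the groups overlapped (exact permutation p = 0.2, and 0.2 adjusted).

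**Figure D3:**
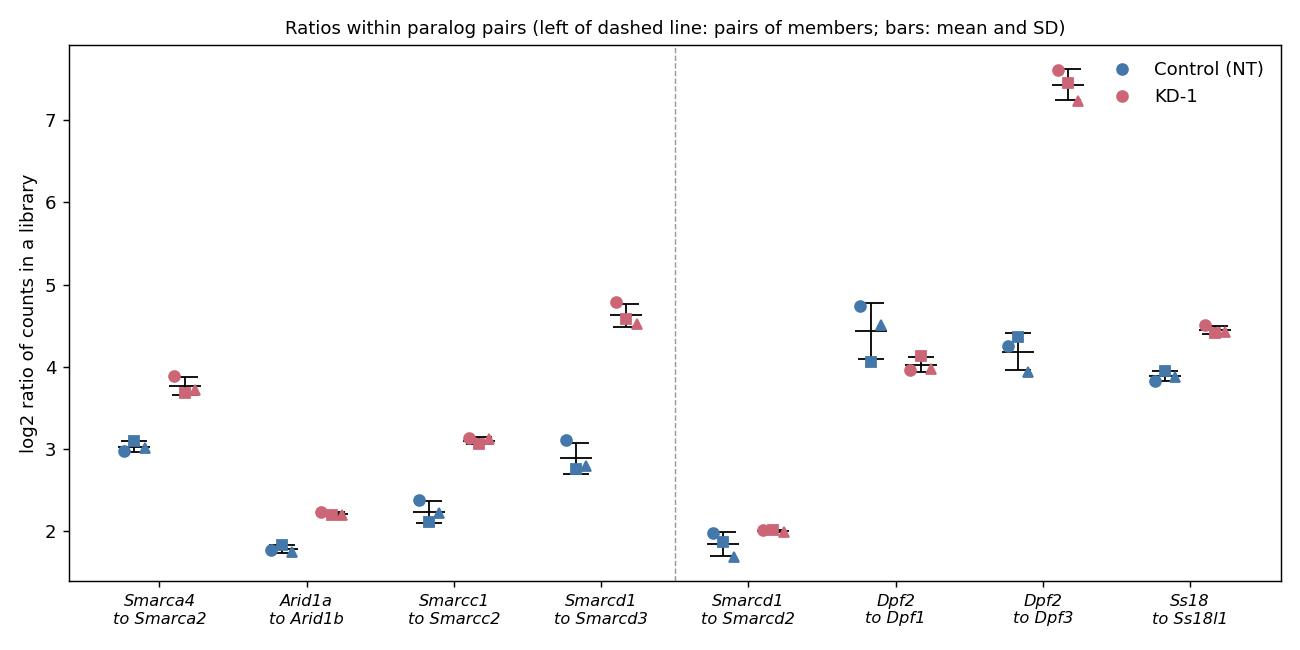
Log2 ratio of counts within 8 paralog pairs (y axis) in each library, with Control in blue, KD-1 in red, circles, squares and triangles for the libraries of lowest, middle and highest depth, and bars for the mean and SD of 3 libraries. In the 4 pairs of members, left of the dashed line, all KD-1 points lie above all Control points, by 0.43 to 1.74 on average, and only *Dpf2* to *Dpf1* is lower on average in KD-1.

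Levels of different genes were compared as TMM-normalized CPM per kb of annotated exon. In Control the order of mean levels was *Smarcc1* at 43.5, *Actl6a* at 40.4, *Smarca4* at 33.5, *Smarcd1* at 22.9, *Dpf2* at 16.2, *Arid1a* at 14.9, *Smarcc2* at 10.4, *Arid1b* at 4.25, *Smarcd3* at 2.57 and *Smarca2* at 1.51. The libraries of *Smarcc1* and *Actl6a*, and those of *Dpf2* and *Arid1a*, overlapped, and the other neighbours were separate. In KD-1 the extremes kept their places, with *Smarcc1* at 44.2 and *Smarca2* at 0.511, but *Smarca4* at 18.8 stood below *Smarcd1* at 20.6, and *Dpf2* below *Arid1a* at 15.4. All neighbours in the KD-1 order were separate. Both orders depend on the length used. Per kb of coding sequence *Actl6a* stood above *Smarcc1*, at 124 and 106 in Control and 118 and 108 in KD-1. By that length *Smarca4* at 44.6 was below *Smarcd1* at 68.4 already in Control. *Dpf2* at 64.1 was above *Arid1a* at 28.4 in KD-1. Per kb of the longest transcript *Smarcd3* at 1.04 was below *Smarca2* at 1.20 in KD-1.

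Per kb, *Smarcc1*, *Smarca4*, *Smarcd1* and *Dpf2* made up most of their families in Control, and their mean share was larger in KD-1. *Smarcc1* accounted for 80.7% ± 1.45 of the SMARCC level in Control and 88.4% ± 0.287 in KD-1 (SD, n = 3). *Smarca4* accounted for 95.7% ± 0.179 of the ATPase level in Control and 97.3% ± 0.192 in KD-1, while the summed level of the pair went from 35.0 to 19.3 CPM per kb. The share of *Smarca2* depends on the length used, as it was 4.33% in Control and 2.65% in KD-1 per kb of all annotated exons, but 11.1% and 6.99% per kb of coding sequence. Within the SMARCD family *Smarcd1* held 71.2% in Control and 77.2% in KD-1, *Smarcd2* 20.9% and 20.2%, and *Smarcd3* 7.94% and 2.58%. *Smarcd2* shares 28.5% of its exonic bases with a gene on the opposite strand at 202 CPM in Control and 188 in KD-1. As the use of strand is not stated, reads from the shared bases cannot be told apart in these shares. *Arid1a* held 48.6% and 53.0% of the ARID family, *Arid1b* 13.8% and 11.2%, and *Arid2*, the ARID subunit of the PBAF form, 37.6% and 35.8%. *Dpf2* held 90.1% and 92.8% of the DPF family, of which *Dpf3* made up 5.02% in Control and 0.543% in KD-1.

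**Figure D4:**
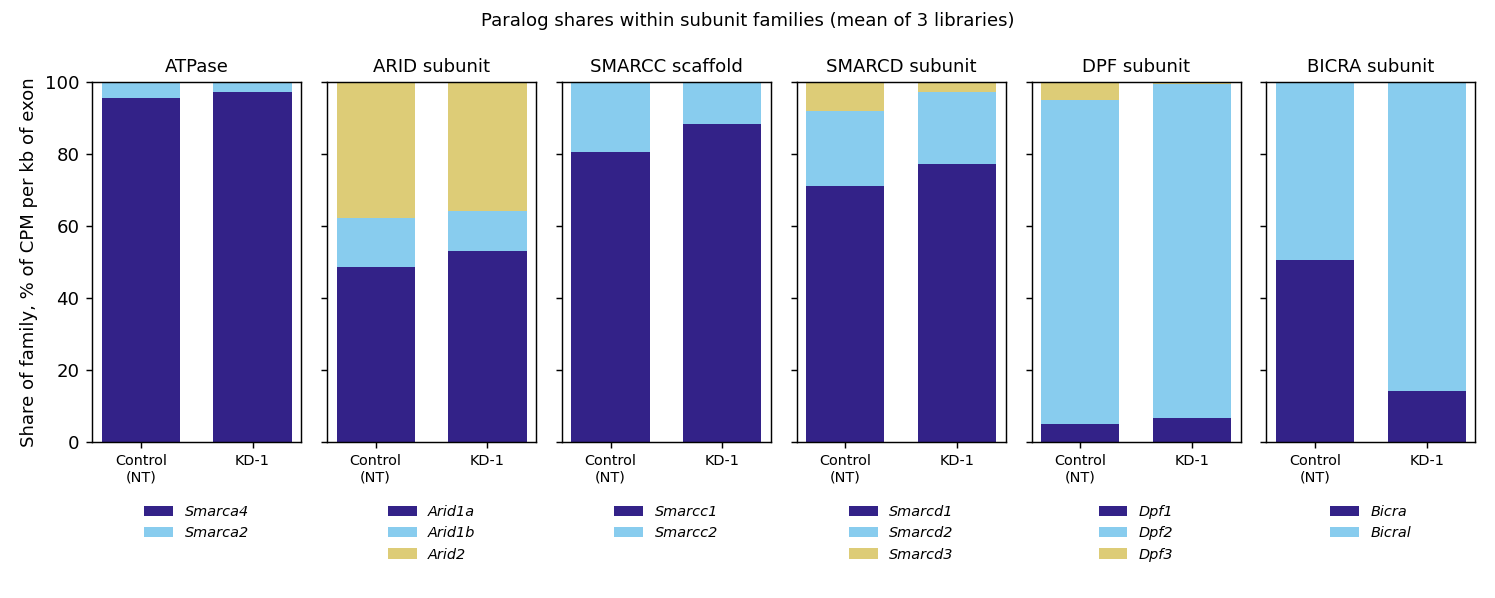
Share of each paralog in its family (y axis, % of TMM-normalized CPM per kb of annotated exon, mean of 3 libraries) in Control and KD-1 for 6 families. *Smarcc2*, *Smarcd3* and *Dpf3* narrow in KD-1, and *Bicra* goes from 50.6% to 14.3% of the BICRA family.

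For comparison, 21 other BAF subunit genes were listed, of which 20 were tested. In KD-1, 3 rose and 4 fell, so that 35.0% were called, near the 37.7% of all genes, and their median log2 fold change was -0.20. By adjusted p alone, 4 were higher and 9 lower, where 63.5% of all genes passed. The levels of 14 of the 20 did not overlap between groups, as for 70.6% of all genes.

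In contrast to the members, some of these subunits rose. *Bicral* (GLTSCR1L), a subunit of the non-canonical form GBAF, was at 18.5, 15.2 and 16.8 CPM in Control and at 51.9, 49.6 and 51.0 in KD-1, and rose by 1.60 on the log2 scale with an SE of 0.08 (adjusted p = 9.0e-07, edgeR). Its paralog *Bicra* moved the other way, from 14.7, 13.9 and 14.6 CPM to 7.87, 5.91 and 7.48, and fell by 1.02 (adjusted p = 0.00011, edgeR). Accordingly *Bicra* went from 50.6% to 14.3% of the level of this pair per kb of annotated exon, and from 36.8% to 8.65% per kb of coding sequence. *Bcl11a* and *Bcl11b*, zinc finger subunits known from the nervous and blood lineages, rose by 2.40 and 1.48 on the log2 scale, from low Control means of 1.37 and 0.451 CPM.

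Of the core subunits outside the list of members, *Smarce1* (BAF57) fell from 445, 435 and 430.0 CPM to 280.2, 272 and 285 (log2 fold change -0.65, adjusted p = 1.1e-05, edgeR). *Smarcb1* (BAF47), which anchors the complex to the nucleosome, was lower by less than 1.5-fold, with a log2 fold change in edgeR of -0.45 (adjusted p = 0.001). *Dpf3* fell by 3.67 and *Bcl7b* by 0.68, and the call of *Bcl7b* was lost without the middle Control library, with a log2 fold change of -0.56. The PBAF subunits *Pbrm1* and *Phf10* had log2 fold changes of 0.03 and -0.01 and were not called. *Phf10* shares 24.7% of its exonic bases with a gene on the opposite strand whose log2 fold change was 0.79. A further PBAF subunit, *Brd7*, was lower by less than 1.5-fold (log2 fold change -0.41, adjusted p = 0.0002, edgeR). The neuronal paralog *Actl6b* (BAF53B) had 0 counts in all 3 Control libraries and 9, 4 and 21 in KD-1, at least 7.53-fold higher when 3 counts over the Control group are taken as its floor. With a KD-1 mean of 0.183 CPM, *Actl6b* was too low to be tested. The further paralogs *Dpf1*, *Ss18l1* and *Dpf3* did not rise with it, at log2 fold changes of -0.03, -0.25 and -3.67.

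Lists of cell type markers also differed between the groups. Of 10 pluripotency markers, 8 rose in KD-1, whereas *Tbx3* and *Dppa3* were not called. The summed level of the list was 810 to 889 CPM in Control and 2560 to 2650 in KD-1. The list includes *Pou5f1* and *Sox2*, which are not specific to the naive state. Their means were 269 and 114 CPM in Control and 661 and 531 in KD-1. Of 11 neural markers, 10 rose, and their sum was 60.6 to 63.5 CPM in Control and 399 to 413 in KD-1. All 9 tested of 10 paraxial mesoderm markers fell, and the sum went from 519 to 600 CPM down to 45.6 to 46.0, with *Foxc2* at 1 to 5 counts per KD-1 library. Most of this sum was *Meox1* in Control, with a mean of 371 CPM, and *Pax3* in KD-1, with a mean of 42.2 CPM. Of 9 cardiac markers only 4 could be tested, and 3 of these fell, with a sum of 7.48 to 9.56 CPM in Control and 2.23 to 2.46 in KD-1. *Tnnt2*, which encodes cardiac troponin T, had 57, 131 and 215 counts in Control and 5, 6 and 9 in KD-1. *Tnnt2*, *Gata4* and *Actc1* fell by 4.88, 2.48 and 4.50 on the log2 scale. *Myl7* had more counts in KD-1, at 2, 2 and 1 in Control and 7, 7 and 10 in KD-1, but was not tested. *Mef2c* was not called, and the early cardiac factors *Nkx2-5* and *Tbx5* had 0 to 4 counts in every library, too few to be tested. For the other lists, 2 of 7 tail bud markers rose and 3 fell, with sums of 71.3 to 78.0 and 74.8 to 78.2 CPM. Only 2 of 5 endoderm markers could be tested, and both fell. The sum of this list was 14.9 to 16.8 CPM in Control and 0.299 to 0.415 in KD-1. Most of the Control sum was *Cer1*, with a mean of 14.6 CPM. *Sox17*, *Foxa2* and *Gata6* had Control means of 0.207, 0.048 and 0.246 CPM and were not tested, so that the list says little about endoderm cells. Of 7 fibroblast markers, 4 could be tested, of which 3 fell and *Thy1* was not called. The sum over all 7 was 8.34 to 9.15 CPM in Control and 0.817 to 1.00 in KD-1. Most of the Control sum was *Col3a1*, with a mean of 5.44 CPM. The part of these differences in the levels of the BAF genes was not tested.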

How the data were processed

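Bulk RNA-Seq was performed on 3 Control (NT) and 3 KD-1 gastruloid samples at day 5. The authors sequenced TruSeq libraries, converted base calls with bcl2fastq and quantified genes with Salmon v1.1 against a Gencode gene model, per the study's methods and the submitters' processing notes. The genome build and strand setting are not given in the sources used here. The values the authors deposited are estimated counts per gene from Salmon, already whole numbers, with 20982249 to 85561026 per library. Columns were assigned to a group by name, but not to a numbered sample, and libraries are named by depth.

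Genes passing filterByExpr were tested with edgeR 4.0.16 (R 4.3.3) by TMM scaling and a robust quasi-likelihood test, with Benjamini-Hochberg adjustment over 15110 genes. Calls required an adjusted p under 0.05 and a fold change over 1.5, the study's thresholds. The fit was tested on simulated data. Of 35565 identifiers, 35222 were matched to symbols, lengths and coordinates in Gencode vM39 (GRCm39). Ratios of counts within pairs were compared by exact permutation over libraries. Alternatives were DESeq2 1.42.0, limma-voom (limma 3.58.1), other scalings, low-count filters, fold thresholds, gene lengths and leaving out each library. The members and gene lists were chosen with earlier results of these data known. The genes named are the 10 members, genes of the other BAF and SNF2-family ATPase lists described by role or with the largest change, and some markers of the cell type lists. *Chpf2* was added because it overlaps *Smarcd3*, and was chosen after its values were seen. Counts of 0 are set against a floor of 3 counts, which covers counting error only.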

Additional observations from a re-analysis of the deposited data

How the results depend on the processing

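No paired analysis was possible because the columns carry no replicate numbers that match the labels. The 10 members were refitted under 14 other settings, and 139 of the 140 log2 fold changes kept their direction and their side of the threshold. The exception was *Smarcc1*, not called in any of them, which ranged from -0.019 (without the middle Control library) to 0.055 (without the Control library of lowest depth) as single libraries were left out. With an absolute log2 fold change over 1 required, 2 members were called (*Smarca2* and *Smarcd3*, both lower). At this threshold 5 of 20 other BAF subunits and 2 of 23 other SNF2-family ATPases were called. The share of all genes called at it was not computed. For scale, 77.3% of all genes tested had a smaller absolute log2 fold change than *Bicra*, at 1.02. With no fold threshold, 6 of 10 members, 13 of 20 other BAF subunits and 16 of 23 other SNF2-family ATPases were called. Of all genes tested, 63.5% passed. The median log2 fold change of all genes lay between -0.03 and 0.06 across the settings. Mean paralog shares moved with the length used by more than the SD between libraries in the values below, but were higher in KD-1 than in Control for each gene under each length. Per kb of coding sequence they were, in Control and KD-1, 88.9% and 93.0% for *Smarca4*, 45.1% and 49.4% for *Arid1a*, and 83.5% and 90.2% for *Smarcc1*, with 78.1% in KD-1 for *Smarcd1*. Per kb of the longest transcript they were 90.4% and 94.0% for *Smarca4*, 51.9% and 56.2% for *Arid1a*, 83.1% and 90.0% for *Smarcc1*, and 64.8% and 71.6% for *Smarcd1*, with 93.3% in KD-1 for *Dpf2*. Depth did not limit the members, which had at least 150 counts in every library, but limited *Actl6b*. With 3 libraries per group, a single ratio cannot give an exact p under 0.1.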

Other observations

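Remodelling ATPases outside BAF, which belong to the same SNF2 family, moved in both directions. Of 23 tested, 6 rose and 3 fell in KD-1, so that 39.1% were called beside 37.7% of all genes, and their median log2 fold change was 0.27. *Smarcad1*, which helps to keep heterochromatin silent after replication, went from 118, 96.0 and 106 CPM in Control to 210.5, 219 and 219 in KD-1 (log2 fold change 1.02, adjusted p = 8.6e-06, edgeR). *Hells*, which is needed for DNA methylation of repeats, rose by 0.85, and *Hltf*, a remodeller of stalled replication forks, by 0.85. *Chd3*, an ATPase of the NuRD complex, rose by 0.98, whereas its paralog *Chd4* was at 445, 396 and 468 CPM in Control and 411, 418 and 424 in KD-1, with a log2 fold change in edgeR of -0.06 (adjusted p = 0.45). *Chd5* rose by 1.02 from a low Control mean of 1.71 CPM. *Btaf1*, which removes TBP from DNA, rose by 0.66, but its call was lost without the middle Control library, where the log2 fold change was 0.50.

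Among those that fell, *Chd7*, a remodeller of enhancers in neural crest and other progenitors, went from 201, 173 and 201 CPM to 100.2, 98.5 and 101 (log2 fold change -0.94, adjusted p = 7.1e-06, edgeR). *Smarca1*, the ISWI ATPase SNF2L, fell by 0.88, while *Smarca5*, the ISWI ATPase SNF2H, was higher by less than 1.5-fold, with a log2 fold change in edgeR of 0.16 (adjusted p = 0.047). *Shprh* fell by 0.76, opposite to *Hltf*, to which it is related.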
